A study of Mus musculus with 18 samples.

Results

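Recovered cortex was set against cortex taken at the end of sleep deprivation, on 6 of the 18 arrays of the series. The members were chosen by their sample titles alone: 3 recovered pools and 3 sleep-deprived pools of mouse cerebral cortex. Recovered mice had been kept awake for 6 h and then left to sleep, for 18 h according to the source labels and for 24 h according to the treatment protocol. Sleep-deprived mice were killed right after 6 h of enforced wakefulness, and control mice, whose 3 pools are given beside both groups, stayed undisturbed in the home cage. All were male C57BL/6J mice, 9 in each of the 3 groups and 27 in all, with no transgene or drug named; their age is not given in the sources used here. RNA of 3 mice of a group was combined for each Affymetrix array, so a value is the average of a pool and the p-values measure the spread between pools, not between mice. The other 9 arrays of the series held cultured cortical cells and are not described here. By the design, recovered mice were sampled on the next day at the clock hour when deprivation had begun, which is 6 h earlier in the day than sleep-deprived mice; with 24 h counted from the end of deprivation, both would share that hour. Time of day and recovery sleep therefore cannot be told apart.

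Wakefulness is accompanied in cerebral cortex by transcription of immediate early genes, which encode transcription factors such as Fos and the Egr family and synaptic proteins such as Arc, and which respond to neuronal activity within minutes. Prolonged wakefulness is also known for a load on protein folding in the endoplasmic reticulum, where the chaperone Hspa5 (BiP) holds unfolded proteins and the transcription factor Xbp1 induces further chaperones. Keeping rodents awake raises circulating corticosterone, which acts through the glucocorticoid receptor on genes such as Fkbp5, Sgk1 and Tsc22d3, and clock genes such as Per1 and Dbp follow both time of day and prior sleep.

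Of 14807 genes with 1 probe set each, 334 changed between recovered and sleep-deprived cortex (2.26% of those tested). The words rose, fell and changed are kept for genes with an adjusted p in limma under 0.05, a value on the log2 scale is the deposited signal, and a difference is recovered minus sleep-deprived with its standard error (n = 3 pools per group). There were 217 genes higher in recovered cortex (1.47%) and 117 lower (0.79%), and 2440 genes had an unadjusted p under 0.05. Differences were small: the median was 0.31 on the log2 scale among the genes that rose and -0.38 among those that fell, and only 12 rises and 18 falls reached 1.5-fold. The 3 recovered and 3 sleep-deprived values did not overlap for 3307 genes (22.3% of all), and for each of the 334 that changed. The median difference over all genes was 0.012. The surplus of rises, 65.0% of the calls, did not hold under other scalings: 49.5% of calls were higher after quantile normalization of the cortex arrays and 43.5% after each array was centred on its median. Of the 15 largest falls, 10 were on lists of activity-regulated, endoplasmic reticulum chaperone or glucocorticoid-responsive genes. They were Arc, Egr2, Egr3, Nr4a1, Dusp4, Rasd1, Hspa5, Sdf2l1, Cdkn1a and Tsc22d3. Of the 14807 genes, 23 were listed as immediate early factors and 30 as activity-regulated effectors. The chaperone list held 26 and the glucocorticoid list 20. These lists were written with earlier results of these data known, so the count is a description.

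**Figure D1:**
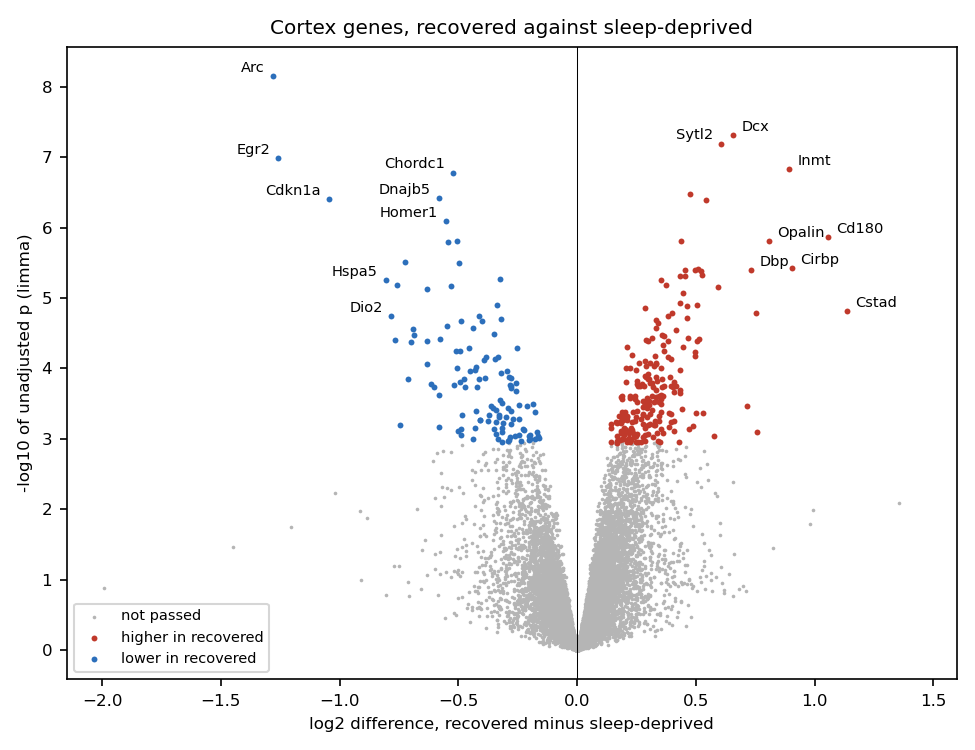
Each point is 1 of 14807 genes; the x axis is the log2 difference, recovered minus sleep-deprived cortex, and the y axis is -log10 of the unadjusted p of limma. Red points (217) were higher and blue points (117) lower in recovered cortex at an adjusted p under 0.05, with Arc at -1.28 and Cstad at 1.14 as the extremes among them, and grey points did not pass.

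Array medians lay between 6.90 and 6.97 in recovered, 6.88 and 6.90 in sleep-deprived and 6.90 and 6.92 in control cortex. Pearson correlations across probe sets were 0.989 to 0.991 between recovered pools, 0.989 to 0.993 between sleep-deprived pools and 0.986 to 0.993 between pools of the 2 groups. The summed linear signal of 10 neuronal markers was 43157 to 43448 in recovered, 43001 to 43907 in sleep-deprived and 42826 to 43690 in control pools. The number of calls moved with single pools. It was 127, 215 and 173 when recovered pools 1 to 3 were left out in turn, 104, 145 and 111 for the sleep-deprived pools, and 204, 184 and 481 for the control pools. All 334 genes kept their direction in each of these fits, as they had to, since their recovered and sleep-deprived values did not overlap. Of them 80 (47 higher, 33 lower) passed in all of these fits.

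**Figure D2:**
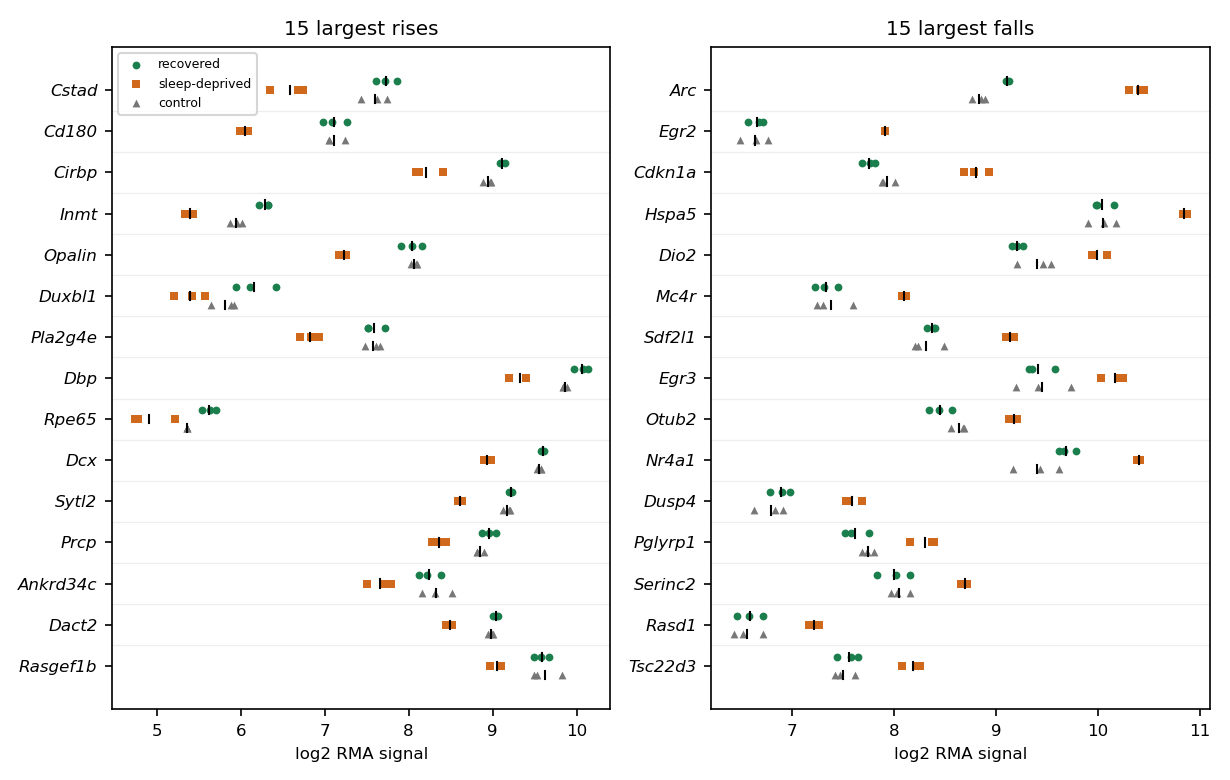
The 15 largest rises (left) and the 15 largest falls (right) among genes that changed, with the log2 signal of each pool on the x axis. Green circles are recovered, orange squares sleep-deprived and grey triangles control pools, and black bars are group means; in every row the green and the orange symbols do not overlap, and most green symbols lie close to the grey ones.

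Some immediate early transcription factors were lower in recovered cortex. Of 23 measured, 8 fell, 15 did not pass and none rose, where 0.79% of all genes fell. The median difference was -0.27, against 0.012 over all genes. This list and those below were written with earlier results of these data known. Their counts beside the share of all genes are therefore descriptions, not tests. Egr2, a zinc-finger factor induced by neuronal activity, had the largest fall of the immediate early factors. Its log2 signal was 6.57, 6.72 and 6.68 in recovered, 7.91, 7.91 and 7.92 in sleep-deprived and 6.77, 6.65 and 6.49 in control pools. Recovered values lay far below the sleep-deprived ones and among the control ones, a 2.39-fold lower signal (-1.26 ± 0.069, adjusted p = 0.000377). Its relatives Egr3 (-0.75 ± 0.14) and Egr1 (-0.35 ± 0.041, adjusted p = 0.00809) fell as well.

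Nr4a1, an orphan nuclear receptor, had 9.61, 9.67 and 9.78 in recovered, 10.41, 10.41 and 10.38 in sleep-deprived and 9.62, 9.43 and 9.17 in control pools. The recovered pools lay below all sleep-deprived pools, and their mean was still 0.28 above the control mean, a difference that did not pass. It fell by 0.71 ± 0.10 (adjusted p = 0.017), and its relative Nr4a3 changed by -0.51 ± 0.070. The AP-1 subunits Fosl2 (-0.52 ± 0.078) and Junb (-0.33 ± 0.057) fell, and so did Npas4 (-0.34 ± 0.035), a neuron-specific factor that responds to depolarization. Npas4 in recovered cortex (8.64, 8.69 and 8.69) was below every control pool (8.77, 8.79 and 8.81), by a mean of 0.12 that did not pass (adjusted p = 1).

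Fos, the founding member of the class, had 6.31, 6.35 and 6.45 in recovered and 7.11, 6.67 and 7.10 in sleep-deprived pools. The groups did not overlap, but sleep-deprived pool 2 lay well below the other sleep-deprived pools, and the difference of -0.59 ± 0.12 missed the threshold (adjusted p = 0.0589). Klf10 (-0.34 ± 0.073), Ier5 (-0.43 ± 0.11) and Crem (-0.16 ± 0.065) did not pass either. Further members, named after their values were seen, did not pass and differed little. Jun (0.088) and Ier2 (0.068) lay above 0. Nr4a2 (-0.012), Fosl1 (-0.030), Maff (-0.029) and Jund (-0.056) lay slightly below it. Egr1, Egr2 and Npas4 passed whichever pool was left out. The count of 8 dropped to 3 without recovered pool 1, sleep-deprived pool 1 or sleep-deprived pool 3, and to 5 without recovered pool 2 or sleep-deprived pool 2. Egr3 kept its call only in the fits without control pool 1 or control pool 3, with adjusted p up to 0.126 in the others.

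Effector genes regulated by neuronal activity fell too, 10 of 30 measured against 0.79% of all genes. None rose, and the median difference was -0.27. Arc, which encodes a capsid-like protein that promotes removal of AMPA receptors from synapses, had the largest fall of all genes that changed. The log2 signal of Arc was 9.11, 9.10 and 9.12 in recovered, 10.46, 10.30 and 10.42 in sleep-deprived and 8.85, 8.89 and 8.76 in control pools. Recovered pools were closely spaced, well below the sleep-deprived ones, and all 3 above the highest control pool. The signal was 2.43-fold lower in recovered than in sleep-deprived cortex (-1.28 ± 0.050, adjusted p = 0.000104). Against control, recovered Arc differed by 0.27, which did not pass (adjusted p = 0.903).

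Homer1, a scaffold of metabotropic glutamate receptors, had 9.16, 9.11 and 9.18 in recovered and 9.71, 9.66 and 9.73 in sleep-deprived pools. These sets lay apart, and the recovered pools overlapped the control pools (9.26, 9.15 and 9.21), with recovered pool 2 below the lowest of them; the difference was -0.55 ± 0.039 (adjusted p = 0.00108). The whole-gene probe set does not separate the short Homer1a form from longer forms. Nptx2, a secreted pentraxin that clusters AMPA receptors, fell by 0.37 ± 0.064 (adjusted p = 0.0319) and passed only without control pool 1 or control pool 3 when 1 pool was left out. Bdnf, the neurotrophin, had 6.39, 6.32 and 6.29 in recovered and 6.56, 6.65 and 6.43 in sleep-deprived pools, and its difference of -0.22 ± 0.064 did not pass (adjusted p = 0.149).

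The other falling effectors differ in role. Dusp1 and Dusp4 are phosphatases that switch off MAP kinases, Spry4 inhibits receptor tyrosine kinase signalling, Trib1 is a pseudokinase, Rasd1 is a Ras-like GTPase induced by dexamethasone, and Sik1 is a salt-inducible kinase that controls CREB coactivators. Dusp1 had 10.09, 10.07 and 10.11 in recovered, 10.41, 10.40 and 10.42 in sleep-deprived and 9.73, 9.79 and 9.80 in control pools. All recovered pools lay between the other groups with no overlap on either side: the signal fell by 0.32 ± 0.030 from the sleep-deprived level (adjusted p = 0.00276) and was 0.32 above control (adjusted p = 0.0961, not passed). Sik1 (-0.41 ± 0.060) and the constitutively active receptor gene Gpr3 (-0.36 ± 0.059) also fell, with recovered means 0.21 and 0.25 above control that did not pass. Dusp4 (-0.70 ± 0.085), Rasd1 (-0.63 ± 0.086), Trib1 (-0.60 ± 0.091) and Spry4 (-0.49 ± 0.063) fell, with recovered means 0.029 to 0.10 above control that did not pass. The members with the next smallest p were Dusp6 (-0.53 ± 0.11, adjusted p = 0.058), the prohormone convertase gene Pcsk1 (-0.40 ± 0.084), the activin subunit gene Inhba (-0.39 ± 0.088) and Gadd45b (-0.34 ± 0.080). Arc, Homer1, Dusp1, Dusp4 and Spry4 passed whichever pool was left out. The count of 10 was 5 or 6 without recovered pool 1, recovered pool 3 or any 1 of the sleep-deprived pools.

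Chaperones of the endoplasmic reticulum and genes of the unfolded protein response fell in recovered cortex, 9 of 26 measured against 0.79% of all genes. None rose, and the median was -0.19. The falling genes were Hspa5 and its cofactors Sdf2l1 and Hyou1, the glycoprotein chaperone gene Calr and the Hsp90 form Hsp90b1. The others were the disulfide isomerases Pdia4 and Pdia6, the secreted protein gene Manf, and the transcription factor gene Xbp1. Further members, named after their values were seen, did not pass. Canx (-0.025), P4hb (-0.082), Dnajb9 (-0.038) and Ero1a (-0.044) lay slightly below 0. Ddit3 (0.039), Trib3 (0.011), Sil1 (0.085) and Edem1 (0.14) lay above 0. Hspa5 had 9.99, 9.98 and 10.15 in recovered, 10.83, 10.84 and 10.87 in sleep-deprived and 10.18, 10.06 and 9.90 in control pools. Every sleep-deprived pool was above every other pool, and recovered and control pools overlapped. The signal was 1.75-fold lower in recovered cortex (-0.81 ± 0.075, adjusted p = 0.00276).

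Sdf2l1, a component of the Hspa5 complex, had 8.40, 8.32 and 8.41 in recovered and 9.10, 9.17 and 9.13 in sleep-deprived pools (-0.76 ± 0.072, adjusted p = 0.003). Xbp1 had 10.08, 10.07 and 9.99 in recovered and 10.54, 10.44 and 10.34 in sleep-deprived pools (-0.39 ± 0.052, adjusted p = 0.0125); the array value does not separate its spliced and unspliced forms. For both genes the groups lay apart, and recovered means were within 0.10 of control. Pdia4 (-0.55 ± 0.062), Pdia6 (-0.48 ± 0.070), Manf (-0.47 ± 0.071), Hsp90b1 (-0.36 ± 0.060), Calr (-0.32 ± 0.035) and Hyou1 (-0.32 ± 0.060) fell by less. Creld2 (-0.42 ± 0.093, adjusted p = 0.0671), Derl3 (-0.24 ± 0.061), Pdia3 (-0.34 ± 0.11) and Herpud1 (-0.20 ± 0.069) were the nearest members that did not pass. Hspa5, Pdia4, Calr, Sdf2l1 and Xbp1 passed whichever pool was left out, and the count of 9 was 5 without recovered pool 1 or sleep-deprived pool 2.

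The start regions of 4 of these falling genes hold an element known from the unfolded protein response. The endoplasmic reticulum stress element (ERSE) is CCAAT, 9 bases of any kind and CCACG, and it was searched on both strands of RefSeq windows (build GRCm38.p6) that run from 250 bases before to 50 after an annotated start. Of 23 listed genes with a window 8 held it: Hspa5, Hsp90b1, Pdia6 and Calr of the 7 that fell, and Canx, Creld2, Syvn1 and Derl3, which did not pass. Among all 32851 windows 39 did (0.119%), and among tested genes with a window 0.127%. The windows of the falling genes are shown with the match in capitals, 5′ to 3′ on the gene's strand, because these genes moved together. They are Hspa5 at chr2:34771840-34772139 (plus strand), Hsp90b1 at chr10:86705395-86705694 (minus strand), Pdia6 at chr12:17266339-17266638 (plus strand) and Calr at chr8:84846882-84847181 (minus strand).
Hspa5: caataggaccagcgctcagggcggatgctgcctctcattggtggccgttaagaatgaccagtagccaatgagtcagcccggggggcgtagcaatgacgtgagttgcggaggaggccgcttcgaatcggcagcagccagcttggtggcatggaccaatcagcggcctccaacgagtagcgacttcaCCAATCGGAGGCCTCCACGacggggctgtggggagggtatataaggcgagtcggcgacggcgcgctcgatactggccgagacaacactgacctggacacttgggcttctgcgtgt
Hsp90b1: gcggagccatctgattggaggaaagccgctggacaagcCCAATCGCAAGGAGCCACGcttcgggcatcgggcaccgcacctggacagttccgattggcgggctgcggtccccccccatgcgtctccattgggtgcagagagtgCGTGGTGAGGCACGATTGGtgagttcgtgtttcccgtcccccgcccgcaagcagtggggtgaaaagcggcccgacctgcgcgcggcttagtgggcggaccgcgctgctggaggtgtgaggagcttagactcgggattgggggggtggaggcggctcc
Pdia6: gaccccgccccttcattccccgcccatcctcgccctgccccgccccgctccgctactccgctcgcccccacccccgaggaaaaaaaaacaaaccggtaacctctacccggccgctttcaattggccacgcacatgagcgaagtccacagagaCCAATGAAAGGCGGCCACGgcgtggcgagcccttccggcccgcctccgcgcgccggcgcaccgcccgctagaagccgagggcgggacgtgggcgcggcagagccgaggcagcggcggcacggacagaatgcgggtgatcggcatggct
Calr: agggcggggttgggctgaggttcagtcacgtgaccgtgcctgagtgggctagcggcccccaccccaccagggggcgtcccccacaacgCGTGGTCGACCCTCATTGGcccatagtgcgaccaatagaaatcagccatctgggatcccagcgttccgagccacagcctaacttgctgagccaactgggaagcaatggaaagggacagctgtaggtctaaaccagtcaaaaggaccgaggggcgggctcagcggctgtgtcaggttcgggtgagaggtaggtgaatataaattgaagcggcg

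In Hspa5 the match spans positions -65 to -47 relative to the annotated start, in Pdia6 -98 to -80 and in Calr, on the opposite strand, -162 to -144. Hsp90b1 holds 2 matches, at -212 to -194 and, on the opposite strand, at -107 to -89. Chosen by sequence alone, 15 tested genes had the element in a window: 4 fell and none rose, and their median difference was -0.14. Over the 11830 tested genes with any window, 2.24% changed and the median was 0.014. The 7 of these 15 that were not on the chaperone list were Acacb, Adcy3, Alg12, Pan2, Ptgdr2, Spats2l and Zfp57, with differences from -0.14 for Ptgdr2 to 0.14 for Alg12, and none of them passed. A match in a window is a description of the sequence and was not tested as a binding site.

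Cytosolic and mitochondrial chaperones gave 3 falls among 15 measured genes, against 0.79% of all genes, no rise, and a median of -0.16. Chordc1, a cochaperone of Hsp90, had 9.28, 9.31 and 9.32 in recovered, 9.86, 9.83 and 9.78 in sleep-deprived and 9.45, 9.43 and 9.45 in control pools. Recovered pools were below every pool of both other groups, with a fall of 0.52 ± 0.030 from the sleep-deprived level (adjusted p = 0.000409) and a mean 0.14 below control that did not pass (adjusted p = 1). Dnajb5, an Hsp40 family member, had 9.46, 9.55 and 9.52 in recovered and 10.10, 10.08 and 10.10 in sleep-deprived pools, which did not overlap (-0.58 ± 0.038, adjusted p = 0.000609). Hsph1, which encodes the large Hsp110 nucleotide exchange factor, fell by 0.34 ± 0.062 (adjusted p = 0.0355). Stip1 (-0.19 ± 0.040), Dnajb1 (-0.27 ± 0.076), Hspa1a (-0.28 ± 0.090) and Cryab (-0.14 ± 0.052) did not pass. Chordc1 and Dnajb5 passed whichever pool was left out, and Hsph1 only without control pool 3.

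Chordc1 and Hsph1 were also the 2 listed chaperone genes, of 12 with a window, that held a heat shock element. The pattern searched was GAA, 2 bases, TTC, 2 bases and GAA, or its reverse complement, which 0.603% of all windows and 0.549% of tested genes with a window held. In Chordc1 overlapping matches run from -4 to 18 around the annotated start, and in Hsph1 a match lies at 36 to 48 downstream of it. Both windows are given below with these bases in capitals because they belong to a pair of falling genes. Chordc1 is at chr9:18292017-18292316 (plus strand) and Hsph1 at chr5:149636287-149636586 (minus strand).
Chordc1: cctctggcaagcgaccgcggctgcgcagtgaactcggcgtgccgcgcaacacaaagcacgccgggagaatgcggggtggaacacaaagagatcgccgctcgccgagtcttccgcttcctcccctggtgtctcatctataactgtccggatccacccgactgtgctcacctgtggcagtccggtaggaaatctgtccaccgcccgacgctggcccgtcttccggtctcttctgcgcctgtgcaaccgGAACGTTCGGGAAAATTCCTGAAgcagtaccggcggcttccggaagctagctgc
Hsph1: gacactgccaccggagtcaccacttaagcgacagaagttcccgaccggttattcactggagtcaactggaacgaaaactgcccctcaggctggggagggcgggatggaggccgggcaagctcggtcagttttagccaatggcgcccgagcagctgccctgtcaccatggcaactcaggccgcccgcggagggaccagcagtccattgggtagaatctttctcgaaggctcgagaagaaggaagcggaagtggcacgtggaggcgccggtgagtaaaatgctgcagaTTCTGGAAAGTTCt

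Among the 65 tested genes with the heat shock pattern, Chordc1 and Hsph1 fell, Deaf1 rose (0.17 ± 0.030) and the median difference was 0.0048, close to that of all genes with a window. A cAMP response element (TGACGTCA) lay in the window of 1 of 17 immediate early factors, Maff, and a CArG box in those of 2, Egr2 and Srf, against 1.79% and 1.63% of all windows and 2.73% and 1.56% of the tested genes with a window.

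Glucocorticoid-responsive genes fell, 8 of 20 measured against 0.79% of all genes, with none rising. All 20 had a negative difference and the median was -0.29. Cdkn1a, a cell cycle inhibitor that glucocorticoids and p53 induce, had 7.69, 7.77 and 7.81 in recovered, 8.79, 8.69 and 8.93 in sleep-deprived and 7.88, 7.89 and 8.01 in control pools. Each recovered pool was below all pools of both other groups. The fall was 2.06-fold (-1.04 ± 0.068, adjusted p = 0.000609), and the mean was 0.17 below control, which did not pass (adjusted p = 1).

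Tsc22d3 (GILZ), a mediator of anti-inflammatory steroid effects, had 7.58, 7.44 and 7.65 in recovered and 8.23, 8.08 and 8.26 in sleep-deprived pools, which lay apart (-0.63 ± 0.077, adjusted p = 0.0084). Fkbp5, a cochaperone that dampens the glucocorticoid receptor, lay between 6.83 and 7.08 in recovered and between 7.41 and 7.70 in sleep-deprived pools, again with no overlap (-0.58 ± 0.11, adjusted p = 0.0398). Plin4 (-0.62 ± 0.092), a coat protein of lipid droplets, Hif3a (-0.48 ± 0.084), the kinase gene Sgk1 (-0.43 ± 0.060), the phagocytic receptor gene Mertk (-0.39 ± 0.056) and Slc2a1 (-0.40 ± 0.044), the glucose transporter of the blood-brain barrier, fell as well. Sult1a1 (-0.56 ± 0.12, adjusted p = 0.0577), Errfi1 (-0.16 ± 0.036), Tgm2 (-0.22 ± 0.059) and Arrdc2 (-0.17 ± 0.061) did not pass. Tsc22d3, Cdkn1a and Slc2a1 passed whichever pool was left out; the count of 8 was 5 without recovered pool 1 and 3 or 4 without any 1 sleep-deprived pool. A glucocorticoid response pattern (ACA, 3 bases, TGT) lay in the windows of 3 of 18 listed genes, Sgk1, Mt1 and Lcn2, against 6.85% of all windows and 6.32% of the tested genes with a window. Corticosterone was not measured here.

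Among 18 clock and clock output genes 2 rose and 3 fell (1.47% and 0.79% of all genes did), with a median of 0.040. Dbp, a PAR-domain transcription factor driven by the clock, had 10.13, 9.97 and 10.08 in recovered, 9.40, 9.39 and 9.19 in sleep-deprived and 9.89, 9.84 and 9.84 in control pools. Recovered pools were above every other pool, 1.66-fold above the sleep-deprived level (0.73 ± 0.065, adjusted p = 0.00258) and 0.20 above control (adjusted p = 1, not passed). Usp2, a deubiquitinase with clock-driven transcription, rose by 0.37 ± 0.035 (adjusted p = 0.003).

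Per1, a repressor of the clock, had 9.24, 9.22 and 9.27 in recovered, 9.53, 9.56 and 9.50 in sleep-deprived and 9.21, 9.13 and 9.07 in control pools. The recovered pools lay between the other groups without overlap, and the fall of 0.29 ± 0.042 passed (adjusted p = 0.017). Bhlhe40 (-0.45 ± 0.063), a repressor of clock-driven transcription, and Nfil3 (-0.41 ± 0.073), which competes with Dbp for the same DNA sites, also fell. Clock (-0.14 ± 0.030, adjusted p = 0.0598), Npas2 (-0.13 ± 0.039) and Arntl (-0.16 ± 0.051), which encode the activators, and the nuclear receptor gene Rorb (0.33 ± 0.090) did not pass. The 2 rises held whichever pool was left out; of the 3 falls none held without recovered pool 1 or sleep-deprived pool 1, and only that of Bhlhe40 without recovered pool 2, sleep-deprived pool 2 or sleep-deprived pool 3. Time of day touches these genes most directly and was not separated from recovery, as described above.

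Per1 was the falling clock gene whose RefSeq window (GRCm38.p6, chr11:69098699-69098998 (plus strand)) held both an E-box (CACGTG, the site of Clock and Arntl) and a D-box (TTATGTAA or TTATGCAA, the site of Dbp and Nfil3). These are in capitals below, at -166 to -161 and at -24 to -17. Among 16 listed clock genes with a window 4 held the E-box, Per1, Cry1, Bhlhe41 and Tef, against 7.15% of all windows and 10.2% of the tested genes with a window, and 2 held the D-box, Per1 and Per3, against 1.66% of windows and 1.8% of genes.
Per1: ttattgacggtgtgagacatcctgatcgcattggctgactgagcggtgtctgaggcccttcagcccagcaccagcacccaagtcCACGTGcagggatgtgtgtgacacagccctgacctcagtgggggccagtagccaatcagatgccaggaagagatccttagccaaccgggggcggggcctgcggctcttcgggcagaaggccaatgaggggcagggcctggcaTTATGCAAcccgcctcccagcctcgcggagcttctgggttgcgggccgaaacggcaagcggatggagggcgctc

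Other genes completed the 15 largest falls. Dio2, a deiodinase that makes active thyroid hormone and is expressed by astrocytes, had 9.21, 9.16 and 9.27 in recovered and 9.94, 9.96 and 10.08 in sleep-deprived pools. The groups did not overlap (-0.78 ± 0.085, adjusted p = 0.00575), and the recovered mean was 0.19 below control, where control pool 3 reached the recovered values. Mc4r, the melanocortin receptor known for control of appetite, had 7.45, 7.23 and 7.31 in recovered and 8.12, 8.10 and 8.08 in sleep-deprived pools (-0.77 ± 0.093, adjusted p = 0.0084). Otub2 (-0.72 ± 0.062), a deubiquitinase, Pglyrp1 (-0.69 ± 0.080), which encodes a secreted peptidoglycan recognition protein, and Serinc2 (-0.69 ± 0.082) fell with adjusted p of 0.00258, 0.00718 and 0.00826. Of the 15 largest falls Egr3, Rasd1 and Nr4a1 lost their calls in some fits without 1 pool. For Rasd1, without recovered pool 3, sleep-deprived pool 1 or sleep-deprived pool 2 its adjusted p was 0.0516, 0.0631 and 0.0519. Nr4a1 passed without any 1 control pool (adjusted p up to 0.0423) or recovered pool 3 (0.0427), and not without recovered pools 1 or 2 or any 1 sleep-deprived pool (0.0553 to 0.076).

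The largest rises in recovered cortex included genes of several cell types. In tissue pools fewer cells of a type and less RNA per cell cannot be told apart. Cstad had 7.71, 7.61 and 7.86 in recovered, 6.35, 6.74 and 6.69 in sleep-deprived and 7.43, 7.74 and 7.62 in control pools. Recovered and control pools overlapped, above all sleep-deprived ones, and the rise was 2.20-fold (1.14 ± 0.12, adjusted p = 0.00544). Cirbp, an RNA-binding protein gene that is induced by cooling and known to vary with brain temperature, had 9.09, 9.10 and 9.14 in recovered and 8.12, 8.41 and 8.09 in sleep-deprived pools. All recovered pools were also above the control pools (8.98, 8.96 and 8.89); the rise was 0.91 ± 0.080 (adjusted p = 0.00258), and the difference from control, 0.17, did not pass. Cirbp was the 1 gene to pass of 17 cold-inducible and splicing RNA-binding protein genes, against 2.26% of all genes. The median of the 17 was -0.032. Hnrnph1 (-0.17 ± 0.043), Clk1 (-0.19 ± 0.057), Srsf5 (-0.19 ± 0.061) and Elavl4 (-0.093 ± 0.039), the next by p, had differences below 0.

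Inmt, a methyltransferase of indoleamines listed here with the meningeal markers, had 6.32, 6.32 and 6.21 in recovered, 5.33, 5.44 and 5.42 in sleep-deprived and 5.95, 6.01 and 5.87 in control pools. The 3 groups were separate, with control in the middle: the rise was 0.89 ± 0.051 (adjusted p = 0.000409) and recovered pools were 0.34 above control (adjusted p = 0.848, not passed). Sytl2, an effector of Rab27 in vesicle docking, had 9.20, 9.22 and 9.23 in recovered and 8.59, 8.63 and 8.60 in sleep-deprived pools (0.61 ± 0.031, adjusted p = 0.000317). Prcp, a lysosomal carboxypeptidase, had 8.88, 8.95 and 9.04 in recovered and 8.28, 8.44 and 8.37 in sleep-deprived pools (0.59 ± 0.057, adjusted p = 0.003). Both genes rose with no overlap. Dact2 (0.54 ± 0.036), a Dishevelled-binding regulator of Wnt and TGF-beta signals, rose with an adjusted p of 0.000609.

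Weaker evidence stood behind 4 of the 15 largest rises. Duxbl1 (0.76 ± 0.14), a double homeobox gene, Rpe65 (0.72 ± 0.12), an enzyme of the visual cycle, Ankrd34c (0.58 ± 0.11) and Rasgef1b (0.53 ± 0.091), an exchange factor for Ras-like GTPases, had adjusted p of 0.0422, 0.0271, 0.0451 and 0.0308. Rpe65 was dim, at 5.64, 5.53 and 5.71 in recovered and 4.77, 4.74 and 5.22 in sleep-deprived pools. Each control pool had the same value, 5.36. Control therefore added arrays but no spread, which lowers the shared estimate of spread behind this call. Leaving out recovered pool 1, recovered pool 3, sleep-deprived pool 1 or sleep-deprived pool 2 ended the call of each of the 4, with adjusted p between 0.0641 and 0.136. Duxbl1 kept its call only without recovered pool 2, Ankrd34c only without control pool 3, Rpe65 only without control pool 3 or sleep-deprived pool 3, and Rasgef1b only without control pool 2 or control pool 3.

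Genes of cholesterol and isoprenoid synthesis lay slightly higher in recovered cortex, with a median of 0.13 over 18 measured. Of these, 16 were above 0 and 2 rose, against rises in 1.47% of all genes. Insig1, the sterol sensor that retains the SREBP complex, had 9.66, 9.58 and 9.73 in recovered and 9.28, 9.40 and 9.21 in sleep-deprived pools. Lss, lanosterol synthase, had 8.28, 8.25 and 8.47 in recovered and 7.91, 8.06 and 7.97 in sleep-deprived pools. Neither gene overlapped between groups, and they rose by 0.36 ± 0.057 (adjusted p = 0.0223) and 0.35 ± 0.066 (adjusted p = 0.0403). Msmo1 (0.27 ± 0.082), Hmgcs1 (0.18 ± 0.056), Nsdhl (0.35 ± 0.12) and Stard4 (0.12 ± 0.048) did not pass. Hmgcs1 was the 1 gene of 14 with a window that held a sterol regulatory element (TCACNCCAC), found in 1.24% of windows and 1.45% of tested genes with a window. Insig1 lost its call without recovered pool 1, recovered pool 3, sleep-deprived pool 1 or sleep-deprived pool 3, and Lss in each fit without 1 pool except that without control pool 3 (adjusted p up to 0.0939 and 0.133).

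In phospholipid metabolism 2 of 32 genes rose and 1 fell (median 0.033), where 1.47% of all genes rose and 0.79% fell. Pla2g4e, a cytosolic phospholipase and N-acyltransferase, had 7.51, 7.52 and 7.71 in recovered, 6.71, 6.84 and 6.94 in sleep-deprived and 7.47, 7.66 and 7.61 in control pools. Recovered and control pools overlapped above the sleep-deprived ones, a 1.69-fold rise (0.75 ± 0.081, adjusted p = 0.00552). Lpcat4 (0.22 ± 0.042), a lysophospholipid acyltransferase, rose, and Gpd1 (-0.24 ± 0.043), the cytosolic glycerol-3-phosphate dehydrogenase, fell; both were near the threshold (adjusted p = 0.0413 and 0.034). Plcb1 (0.14 ± 0.032), Lpcat3 (0.21 ± 0.063), Plpp3 (0.17 ± 0.052) and Plcd4 (-0.14 ± 0.043) did not pass. Pla2g4e passed whichever pool was left out, Lpcat4 only without control pool 3, and Gpd1 only without control pool 3 or recovered pool 3.

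Of 27 glutamate, GABA and glycine receptor subunits 2 rose (7.4%, median 0.054), where 1.47% of all genes rose. Glra2, a glycine receptor subunit, had 8.56, 8.58 and 8.62 in recovered and 8.31, 8.16 and 8.22 in sleep-deprived pools, without overlap (0.36 ± 0.042, adjusted p = 0.00819). Gria4, an AMPA receptor subunit, rose by 0.18 ± 0.033 (adjusted p = 0.0364) but passed only without control pool 3 when 1 pool was left out, while Grm3 (0.19 ± 0.041), Gabra4 (0.20 ± 0.042), Gabrg3 (0.14 ± 0.054) and Gria1 (-0.093 ± 0.046) did not pass. Kcnj3, a subunit of G protein-gated potassium channels, was the 1 of 37 potassium channel genes to change, a share near the 2.26% of all genes. It rose by 0.17 ± 0.033 (adjusted p = 0.0494) and passed in no fit without 1 pool except that without control pool 3. Kcnh5 (0.15 ± 0.037), Kcnj4 (0.23 ± 0.057), Kcnh7 (0.11 ± 0.029) and Kcnk1 (-0.22 ± 0.064) came next.

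Htr2a, the serotonin receptor of cortical pyramidal cells, was the 1 of 30 monoamine, acetylcholine, orexin and adenosine receptor genes to change, a share near the 2.26% of all genes. Its signal was 10.13, 10.27 and 10.16 in recovered, 10.45, 10.47 and 10.51 in sleep-deprived and 10.32, 10.33 and 10.23 in control pools. Recovered pools lay below all sleep-deprived pools (-0.29 ± 0.049, adjusted p = 0.0281), and the call held only without control pool 3 or recovered pool 2. Hrh3 (0.21 ± 0.055), Htr1a (0.29 ± 0.079), Htr1b (-0.43 ± 0.12) and Htr7 (0.17 ± 0.055) did not pass.

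Transporter genes moved both ways, 3 of 31 higher and 2 lower, where 1.47% of all genes rose and 0.79% fell. Slc6a6, the taurine transporter, had 10.16, 10.16 and 10.19 in recovered and 9.84, 9.91 and 9.91 in sleep-deprived pools (0.29 ± 0.030, adjusted p = 0.00494). Slc2a1 had 10.89, 10.77 and 10.86 in recovered and 11.23, 11.20 and 11.29 in sleep-deprived pools (-0.40 ± 0.044, adjusted p = 0.00607). Both sets of groups lay apart, in opposite directions. Slc7a11 (0.21 ± 0.037), the cystine-glutamate exchanger, and Slc7a8 (0.19 ± 0.038), a carrier of neutral amino acids, rose, and Slc38a2 (-0.26 ± 0.051), a sodium-coupled carrier of neutral amino acids, fell. Slc6a6 and Slc2a1 held their calls whichever pool was left out; Slc7a8 and Slc38a2 passed only without control pool 3, and Slc7a11 only without control pool 3 or recovered pool 1.

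Of 42 genes of the extracellular matrix and axon guidance 3 rose (median -0.0079), where 1.47% of all genes rose. Lama4, a laminin chain of vascular basement membranes, had 7.45, 7.54 and 7.62 in recovered and 7.01, 7.03 and 7.03 in sleep-deprived pools. Slit2, a secreted repellent of axons, had 8.53, 8.56 and 8.67 in recovered and 8.22, 8.24 and 8.22 in sleep-deprived pools. Neither gene overlapped between groups, with differences of 0.51 ± 0.045 (adjusted p = 0.00258) and 0.36 ± 0.045 (adjusted p = 0.00916), and both held whichever pool was left out. Sema6a, a transmembrane semaphorin, rose near the threshold (0.25 ± 0.049, adjusted p = 0.0452) and passed only without control pool 3 when 1 pool was left out. Slit1 (-0.22 ± 0.050), a relative of Slit2, had a difference of the other sign and did not pass.

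No member passed among 31 presynaptic genes (median 0.031), 23 respiratory chain genes (0.054), 21 translation factors and aminoacyl-tRNA synthetases (0.047) or 22 sodium, calcium and HCN channel genes (-0.013). The same held for 32 genes of growth factor, insulin and mTOR signalling (-0.0082), 30 of Notch and Wnt signalling (0.044) and 25 inflammatory and interferon genes (0.0020). Their members with the smallest p were Doc2b (-0.25 ± 0.067), a calcium sensor of release, Ndufa2 (-0.20 ± 0.065), Vars (0.21 ± 0.055), Cacna2d3 (-0.16 ± 0.051), Igfbp5 (0.20 ± 0.046), the Notch regulator gene Nrarp (0.32 ± 0.085) and the chemokine gene Cx3cl1 (-0.19 ± 0.052). A p that misses the threshold does not show that these genes were alike in both groups.

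**Figure D3:**
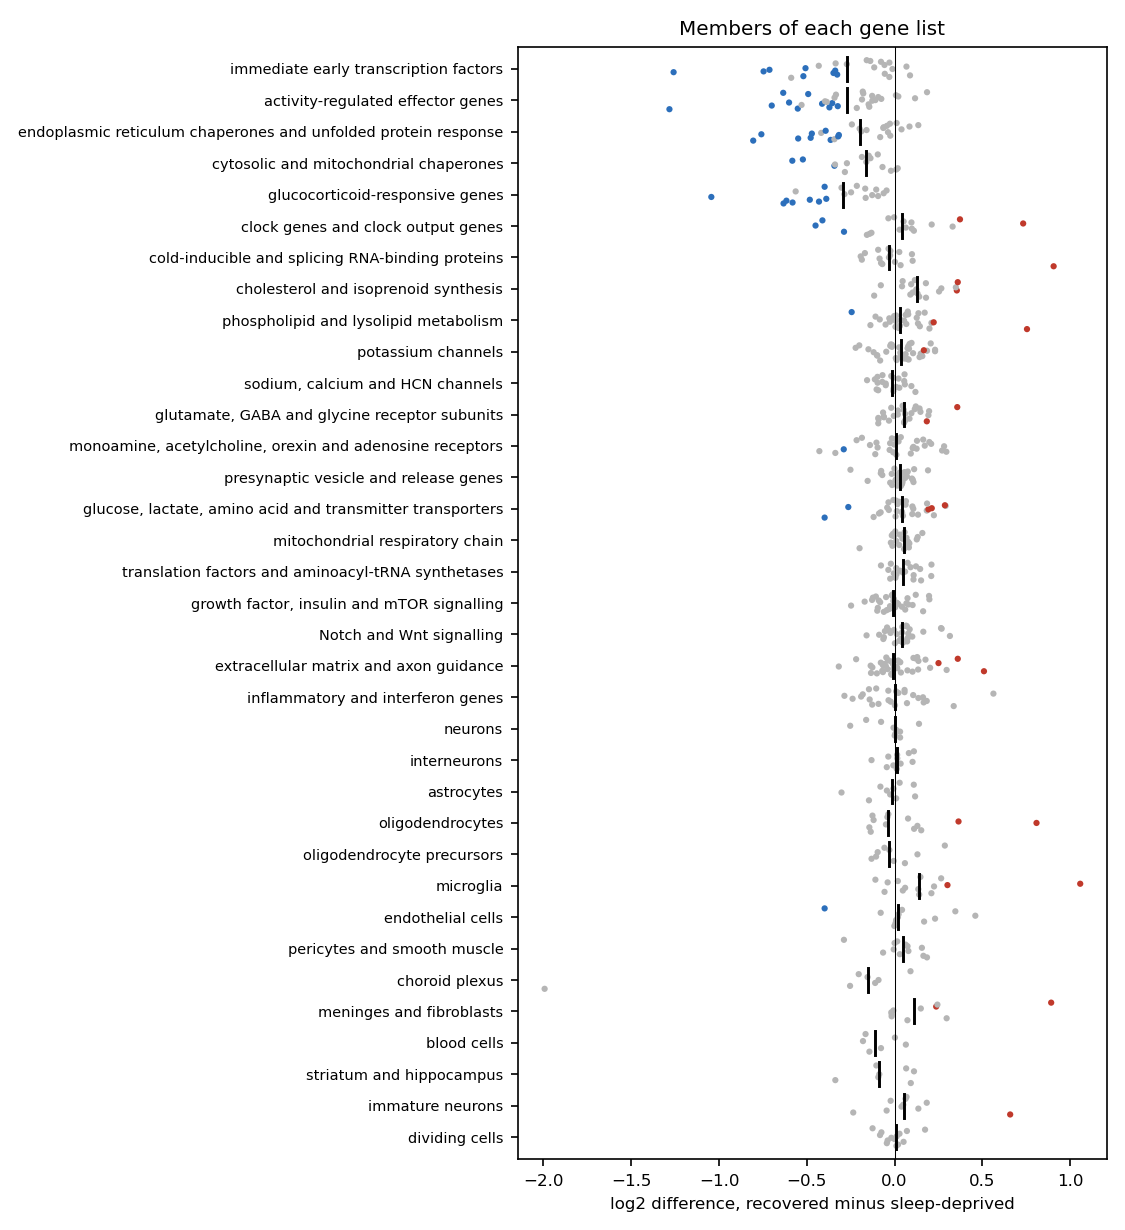
Each point is a measured member of 1 of 35 gene lists (21 pathway lists above, 14 cell type marker lists below), placed by its log2 difference, recovered minus sleep-deprived cortex. Red points rose and blue points fell at an adjusted p under 0.05, grey points did not pass, and black bars are list medians; blue points gather in the first 5 lists, whose medians run from -0.29 to -0.16.

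Among markers of cell types 2 genes passed of 13 for oligodendrocytes, 2 of 14 for microglia and 2 of 10 for meninges and fibroblasts. For endothelial cells 1 of 13 passed and for immature neurons 1 of 10, where 2.26% of all genes changed. Opalin, a myelin protein gene of oligodendrocytes, had 7.91, 8.04 and 8.16 in recovered, 7.26, 7.26 and 7.17 in sleep-deprived and 8.10, 8.08 and 8.02 in control pools. Recovered and control pools overlapped above the sleep-deprived ones, a rise of 0.81 ± 0.063 (adjusted p = 0.0015). Aspa, which cleaves N-acetylaspartate in oligodendrocytes, rose by 0.36 ± 0.043 (adjusted p = 0.00835). The other 11 of 13 oligodendrocyte markers did not pass, Mbp (-0.14 ± 0.035) and Mobp (-0.14 ± 0.048) among them, and the list had a median of -0.035. Its summed linear signal was 12738 to 13915 in recovered, 13038 to 13520 in sleep-deprived and 12694 to 13378 in control pools, so the ranges overlapped.

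Cd180, a toll-like receptor homologue of microglia and B cells, had 6.98, 7.26 and 7.09 in recovered, 6.08, 6.08 and 5.99 in sleep-deprived and 7.05, 7.05 and 7.24 in control pools. The sleep-deprived pools stood alone at the low end, and the rise was 2.08-fold (1.06 ± 0.081, adjusted p = 0.0015). Trem2, a lipid-sensing receptor of microglia, rose by 0.30 ± 0.044 (adjusted p = 0.017), a call lost without recovered pools 1 or 3 or sleep-deprived pools 1 or 3 (adjusted p up to 0.0745). Cd68 (0.22 ± 0.064), Siglech (0.15 ± 0.054), P2ry12 (0.21 ± 0.086) and Itgam (0.14 ± 0.056) did not pass, and 11 of 14 microglial markers had a difference above 0 (median 0.14). The summed microglial signal was 3783 to 4086 in recovered, 3546 to 3696 in sleep-deprived and 3724 to 3883 in control pools, so the recovered and sleep-deprived ranges did not overlap. Cd180 and Trem2 are counted in that sum, so it partly restates their own rise. Whether the microglial share of RNA plays a part in the rise of Cd180 and Trem2 was not tested.

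Dcx, a microtubule-binding protein of migrating and young neurons, had 9.59, 9.62 and 9.58 in recovered, 8.89, 8.94 and 8.98 in sleep-deprived and 9.52, 9.57 and 9.58 in control pools. All 3 sleep-deprived pools were low and the other 6 pools lay between 9.52 and 9.62, which gave a 1.58-fold rise (0.66 ± 0.033, adjusted p = 0.000317). It was the 1 gene of 10 markers of immature neurons to pass. The summed linear signal of the 10, Dcx included, was 11005 to 11454 in recovered and 10501 to 10579 in sleep-deprived pools. It was 10834 to 11248 in control pools. The recovered and sleep-deprived ranges did not overlap, but the rise of Dcx itself is part of that gap. Whether the share of such cells plays a part in the rise of Dcx was not tested. Sox11 (-0.24 ± 0.068) had a difference below 0, Dpysl3 (0.18 ± 0.056), Tubb2b (0.14 ± 0.068) and Ncam1 (0.049 ± 0.033) had differences above 0, and none of them passed.

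Of 10 meningeal and fibroblast markers Inmt and Slc13a4 (0.24 ± 0.040), a sulfate transporter, rose, Slc13a4 only without recovered pool 2, sleep-deprived pool 1 or control pool 3 when 1 pool was left out, while Aldh1a2 (0.24 ± 0.093), Lum (0.30 ± 0.17), Slc22a6 (0.15 ± 0.088) and Dcn (0.073 ± 0.10) did not pass. Their summed signal, Inmt and Slc13a4 included, was 2123 to 2300 in recovered, 2009 to 2073 in sleep-deprived and 2122 to 2244 in control pools. Of 13 endothelial markers Slc2a1 alone passed; Emcn (0.35 ± 0.072) and Slco1a4 (0.46 ± 0.11) had differences of the other sign and did not. The summed endothelial signal, to which Slc2a1 adds most, was 4506 to 4822 in recovered, 4967 to 5104 in sleep-deprived and 4522 to 4660 in control pools. The mean log2 signal of the 13 leaned the other way, 7.954 to 8.050 in recovered and 7.903 to 7.955 in sleep-deprived pools. Of the 13, 10 had a difference above 0 and 3 below. The 12 pericyte and smooth muscle markers held no call, with sums of 3468 to 3723 in recovered and 3247 to 3327 in sleep-deprived pools. Beside Inmt, Slc13a4, Lama4 and Slc2a1 these sums are given as measured; their part in the results was not tested.

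Markers of 2 tissues next to cortex varied between single pools. Ttr, which the choroid plexus makes in bulk, had 7.19, 6.92 and 9.35 in recovered, 10.53, 11.19 and 7.72 in sleep-deprived and 7.83, 10.41 and 7.10 in control pools. High and low pools occurred in every group, and the difference of -1.99 ± 1.18 did not pass (adjusted p = 0.45). Drd2, a marker of striatum, was 8.93, 7.66 and 9.04 in recovered and 8.44, 9.23 and 8.99 in sleep-deprived pools, with recovered pool 2 low and no call (adjusted p = 0.689). None of the 7 choroid plexus, 7 striatal and hippocampal, 6 blood, 10 neuronal, 11 interneuron, 10 astrocyte, 9 oligodendrocyte precursor or 14 dividing cell markers passed.

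Set beside control cortex, recovered values of the 334 genes lay near the home-cage level, as did those of most genes tested. The 217 genes that rose had a median of 0.047 above control after recovery and of -0.26 at the end of sleep deprivation. The 117 genes that fell had a median of -0.012 relative to control after recovery and of 0.37 at the end of sleep deprivation. These comparisons share arrays with the contrast that chose the genes, so they are descriptions. Recovered and control means were within 0.1 of each other for 178 of the 217 and for 93 of the 117. Both shares lie slightly below the 83.8% of all genes, so closeness to control was not particular to the genes that changed. Among the genes that rose, recovered Duxbl1 (0.34) and Inmt (0.34) lay farthest above control. Among those that fell, Dusp1 lay farthest above it (0.32) and Vmn1r229, a vomeronasal receptor gene with a dim signal of 3.38, 3.64 and 3.48 in recovered pools, farthest below (-0.33); it was singled out after its values were seen.

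**Figure D4:**
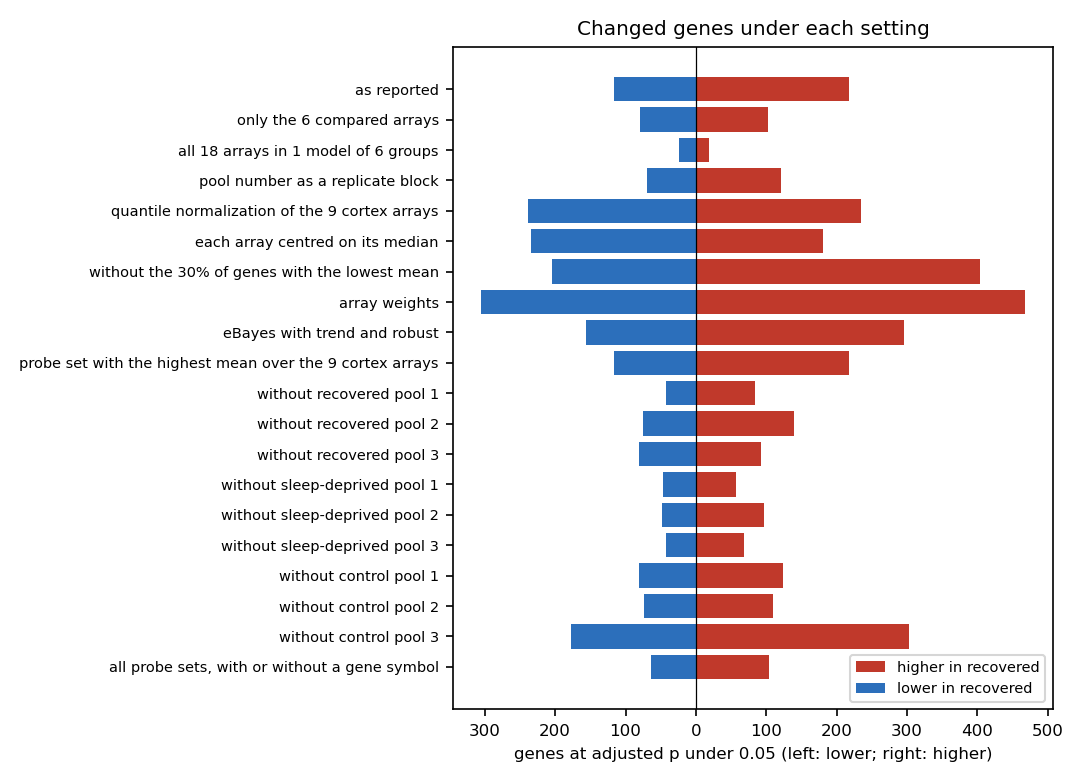
Bars give the number of genes at an adjusted p under 0.05 that were higher (right, red) and lower (left, blue) in recovered than in sleep-deprived cortex, for the fit as reported (217 and 117) and for each other setting, including each pool left out. Counts ranged from 42 genes with all 18 arrays in 1 model to 774 with array weights, and blue bars were longer than red ones with all 18 arrays, after quantile normalization and after centring each array on its median.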

How the data were processed

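Deposited values are log2 signals per probe set. The authors summarised them by RMA, which corrects background, normalizes arrays and combines the probes of a set, per the submitters' processing notes; its version is not given in the sources used here. Per the labels' protocols, each array received 100 ng of total RNA. Of 23238 probe sets 14939 had 1 gene symbol in the platform annotation, 989 several and 7310 none. Each of 14807 genes was represented by its probe set of highest mean (18 arrays), with no pseudocount and no filter on dim genes. Entrez IDs of 14752 genes matched a RefSeq table (GRCm38.p6), whose symbols were the same.

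Recovered and sleep-deprived cortex were compared by the two-sided moderated test of limma 3.58.1 (R 4.3.3; lmFit, eBayes) on the 9 cortex arrays in 3 groups, which share 1 estimate of the spread. P-values were adjusted by Benjamini-Hochberg over 14807 genes. The fit was tested on simulated data. The number of arrays limits the precision.

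Named are the 15 largest rises and falls among changed genes, 10 anchor genes (Arc, Fos, Egr1, Homer1, Bdnf, Nptx2, Per1, Dbp, Hspa5, Cirbp), changed members of 35 gene lists and up to 4 other members per list with the smallest p; other names are said to be chosen after values were seen or come from the motif search. Listed symbols were mapped to current ones where needed. The comparison and the lists were chosen with earlier results of these data known, so list counts are descriptions without a test. Pools with the same number did not deviate together (r from -0.10 to 0.10 over 9 pairs), so no block was used. Promoter windows and their coordinates are from RefSeq, GRCm38.p6.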

Additional observations from a re-analysis of the deposited data

How the results depend on the processing

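All 334 genes that changed kept their direction in every setting that tested them, but most settings could not have shown otherwise. The difference itself did not change with the 6 compared arrays, all 18, a block, trended eBayes or fewer genes. Without 1 pool, the non-overlap of recovered and sleep-deprived values fixed its sign. How many genes passed depended on the setting. With only the 6 compared arrays 182 genes passed, 103 of them higher; with all 18 arrays in 1 model of 6 groups 42 did, 18 higher and 24 lower, of which 6 and 7 reached 1.5-fold. Pool number as a replicate block gave 190 (121 higher, 69 lower); since same-numbered pools did not deviate together (r from -0.10 to 0.10 in 9 pairs; -0.14 to 0.12 in the 18 pairs of unlike number), they do not pair the samples. Quantile normalization of the cortex arrays gave 473 calls with 239 lower, and centring each array on its median 414 with 234 lower. Once the dimmest 30% of genes were dropped, 608 of 10365 passed (404 higher, 204 lower), with array weights 774 (468 and 306), with trended robust eBayes 451, and over all 23238 probe sets 168 (104 and 64). Array weights were lowest for control pool 3 (0.294) and recovered pool 3 (0.373). Leaving out 1 pool gave 104 to 481 genes, 57 to 303 higher and 43 to 178 lower, of which 9 to 12 rose and 15 to 19 fell by at least 1.5-fold. The cause of these shifts was not tested. For 3 changed genes with a further probe set, Spred2, Zmynd8 and Mlec, that probe set had the same direction (-0.52, -0.47 and -0.31) and did not pass. Over all named genes and settings, 3486 results were called or not as reported, 123 gained and 358 lost the call. No result with a call in either fit reversed its direction.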

Other observations

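Further genes that changed between recovered and sleep-deprived cortex fall into groups that were picked after their values were seen, so no count or test of the groups is given. Besides Dusp1, Dusp4 and Spry4, other genes with roles in kinase signalling fell in recovered cortex, such as Spred1 (-0.28 ± 0.051, adjusted p = 0.0365), Spred2 (-0.43 ± 0.073, 0.0301) and the pseudokinase gene Trib2 (-0.49 ± 0.055, 0.00607). Trib2 had 7.93, 7.95 and 7.97 in recovered and 8.39, 8.51 and 8.42 in sleep-deprived pools, which did not overlap. The kinase gene Sik2, a relative of Sik1, fell by 0.31 ± 0.056 (adjusted p = 0.0361). Mfsd2a, the carrier of lysophosphatidylcholine at the blood-brain barrier, had 8.73, 8.75 and 8.89 in recovered, 9.41, 9.37 and 9.48 in sleep-deprived and 8.88, 8.76 and 8.70 in control pools, a fall of 0.63 ± 0.061 (adjusted p = 0.0032). Camk1g, a calcium/calmodulin-dependent kinase gene, changed by -0.50 ± 0.043 (adjusted p = 0.00258).

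Some genes of lysosomal proteins, picked from the calls, were among the small rises in recovered cortex. Other lysosomal genes were not counted. Idua, which degrades glycosaminoglycans, had 8.78, 8.78 and 8.84 in recovered and 8.46, 8.48 and 8.52 in sleep-deprived pools (0.31 ± 0.038, adjusted p = 0.0084). Glb1, beta-galactosidase, differed by 0.26 ± 0.035 (adjusted p = 0.0131), Man2b2, a mannosidase, by 0.25 ± 0.034 (0.0146) and Plbd2, a phospholipase B-like protein, by 0.21 ± 0.040 (0.0425). Some genes tied to cilia were also among the rises, picked from the calls and with no list behind them. They were Bbs2 (0.25 ± 0.041, adjusted p = 0.0249), a subunit of the BBSome, Cc2d2a (0.31 ± 0.053, 0.0296) of the ciliary transition zone and Ofd1 (0.33 ± 0.054, 0.0245) of the basal body. P2ry13, a purinergic receptor of microglia, had 8.63, 8.64 and 8.62 in recovered, 8.31, 8.23 and 8.29 in sleep-deprived and 8.71, 8.73 and 8.68 in control pools (0.36 ± 0.033, adjusted p = 0.00276). Nectin3, a cell adhesion gene, had 9.15, 9.17 and 9.16 in recovered and 8.68, 8.71 and 8.67 in sleep-deprived pools, each set within a narrow range (0.47 ± 0.030, adjusted p = 0.000609). Slc22a8, an organic anion transporter of brain barriers, rose by 0.44 ± 0.034 (adjusted p = 0.0015). When all 23238 probe sets were tested, 17 of the 7310 without a gene symbol passed, 13 higher and 4 lower in recovered cortex; they are not named here.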
